A study of Mus musculus with 20 samples.

Results

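The genes described here encode the enzymes of glycolysis and of glycogen storage and breakdown in mouse gastrocnemius, a calf muscle made mostly of fast fibres. They were chosen as 40 listed gene symbols, kept where a row of the deposited count table held 10 or more counts in 5 or more of its columns. The 40 symbols matched 41 of the 53311 rows, because Aldoa had a row of its own and a second row under the same symbol. The rule kept 40 rows, for 39 symbols, and dropped Ppp1r3b, a glycogen targeting subunit with 1 to 15 counts per library. All 40 rows were among the 13560 genes tested.

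The samples fell into 4 groups of 5. Every sample carried the same genotype, written Cre+:iMSBmal1 fl/fl, so that the controls also had Cre and the floxed Bmal1 alleles. The groups differed in the treatment, which was either vehicle or the treatment labelled iMSBmal1KO, and in exercise. Resting samples were labelled ZT13, and exercised samples were taken 1 h after 30 min on a treadmill and labelled ZT13 as well, where zeitgeber time counts hours from lights on. The labels used here do not name the promoter that drives Cre, the inducing agent, the age or the sex. The descriptions of the exercised knockout-labelled samples speak of training, whereas their titles and treatments give acute exercise, and they are taken as acute exercise here.

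Muscle makes ATP from glucose and from glycogen by the same trunk of reactions. Phosphofructokinase sets the pace at its first committed step, phosphorylase releases glucose phosphate from glycogen, and lactate dehydrogenase returns NAD so that the trunk can run without oxygen. Most of these enzymes exist as a muscle form and as forms of other tissues. BMAL1, encoded by Arntl, pairs with CLOCK and binds the E-box CACGTG, and DBP and the ROR receptors bind 2 further elements of the clock network.

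Promoter letters are shown for Pfkm and Fbp2, the members lower in knockout-labelled muscle both at rest and after exercise, and for Ppp1r3c, a glycogen targeting subunit whose value lay in the other direction without passing the test. Each holds the E-box, which is in capitals, within 250 bases before a RefSeq start on GRCm38.p6, and is written 5′ to 3′ on the strand of the gene. Pfkm has 4 starts in that table and only the one shown holds the E-box, 136 bases before the start. It is the most upstream, at position 98092589, while the others are at 98108471, 98108556 and 98112060. The Fbp2 motif begins 42 bases before its single start and the Ppp1r3c motif 104 bases before its single start. The locations are chr15:98092339-98092588 on the plus strand for Pfkm, chr13:62858401-62858650 on the minus strand for Fbp2 and chr19:36736605-36736854 on the minus strand for Ppp1r3c.
Pfkm: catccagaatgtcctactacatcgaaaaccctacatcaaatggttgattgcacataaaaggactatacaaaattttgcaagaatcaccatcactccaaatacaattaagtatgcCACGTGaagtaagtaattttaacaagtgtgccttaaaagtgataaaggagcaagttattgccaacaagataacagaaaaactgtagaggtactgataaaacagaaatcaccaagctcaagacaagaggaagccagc
Fbp2: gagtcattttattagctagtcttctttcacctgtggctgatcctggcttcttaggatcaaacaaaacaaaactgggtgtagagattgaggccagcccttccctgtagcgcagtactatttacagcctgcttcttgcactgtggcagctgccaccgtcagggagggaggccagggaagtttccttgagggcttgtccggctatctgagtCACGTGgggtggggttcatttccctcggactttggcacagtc
Ppp1r3c: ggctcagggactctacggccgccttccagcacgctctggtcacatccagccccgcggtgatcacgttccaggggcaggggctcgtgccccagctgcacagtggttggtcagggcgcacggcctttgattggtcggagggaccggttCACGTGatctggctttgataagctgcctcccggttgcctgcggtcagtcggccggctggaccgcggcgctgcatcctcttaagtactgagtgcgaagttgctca

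Promoters were found for 36 member symbols, with 52 windows. On either strand CACGTG was in 7 of them (13.5%), 1 each for Fbp2, Ldha, Pfkfb2, Pfkfb3, Pfkm, Ppp1r3c and Ppp1r3d, against 6.02% of all 32851 windows. The D-box letters TTATGTAA were in 0 of 52 and in 0.819% of all windows. The ROR element AGGTCA was in 9 (17.3%), from 8 symbols, against 14.0% of all. These shares describe letters and not bound sites, and which start muscle uses was not tested. Gpd1 and Ppp1r3b are not in the promoter table.

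Total counts ran from 8045154 to 11269812 per library, with a median of 9024900. Arntl was not lower in the knockout-labelled samples: in vehicle its level was 12.3 ± 2.39 CPM (counts scaled to 1e6 per library) before and 14.3 ± 5.71 after exercise, and at 14.5 ± 1.94 and 16.4 ± 4.15 in the knockout-labelled groups (SD, n = 5 each). Reads outside a deleted part of the gene would still count, so this does not check the deletion. Dbp, a clock output gene, ranged from 68.7 to 87.1 CPM at rest and from 56.0 to 64.8 after exercise in vehicle, and from 10.8 to 13.9 and from 10.4 to 14.3 in knockout-labelled muscle. The groups are therefore called vehicle and knockout-labelled. The libraries differed widely in slow-fibre RNA. The summed level of 7 slow-fibre markers ran from 75.8 to 2422 CPM in vehicle at rest, from 35.5 to 2344 in vehicle after exercise, from 211 to 3539 in knockout-labelled muscle at rest and from 48.3 to 2377 after exercise. The sum of 8 fast-fibre markers was at least 96704 CPM in every library. Myh7, the slow myosin, was under 10 CPM in 5 libraries, namely vehicle at rest replicate 5, vehicle after exercise replicates 2 and 4, and knockout-labelled after exercise replicates 2 and 4. It was at 0 in vehicle after exercise replicate 2. In bulk RNA fewer cells of a type and less RNA per cell cannot be told apart. Nothing states that the samples are separate animals, so p-values measure the spread between these samples.

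The members held 5.07% ± 0.735 of all counts in vehicle at rest and 5.35% ± 0.677 after exercise, and 4.71% ± 0.379 and 4.92% ± 0.546 in the knockout-labelled groups. These ranges overlapped. Divided by exon length, Eno3, the muscle enolase, led with a mean of 3239 CPM per kb over the 20 libraries, followed by Pygm, the muscle glycogen phosphorylase, at 2857. Pgam2, the muscle phosphoglycerate mutase, came next at 1552, and Pkm, pyruvate kinase, after it at 1293. Ldha and Pfkm followed at 1158 and 1150, and Tpi1, triosephosphate isomerase, at 1045. The non-muscle forms sat far below: Pygb and Pygl, the brain and liver phosphorylases, at 1.08 and 0.432, and Pfkl and Pfkp, the liver and platelet phosphofructokinases, at 1.61 and 1.93. Aldoa, aldolase A, had the highest unscaled level at 15174 CPM, but its symbol stood for 2 gene entries in the annotation and its level per length is not given. Pgm1 and Pgm2, the phosphoglucomutases, exchanged symbols between annotation releases, so the abundant row, called Pgm2 in the table at 1350 CPM, may be either enzyme, and the row called Pgm1 held 1.99 CPM.

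**Figure D1:**
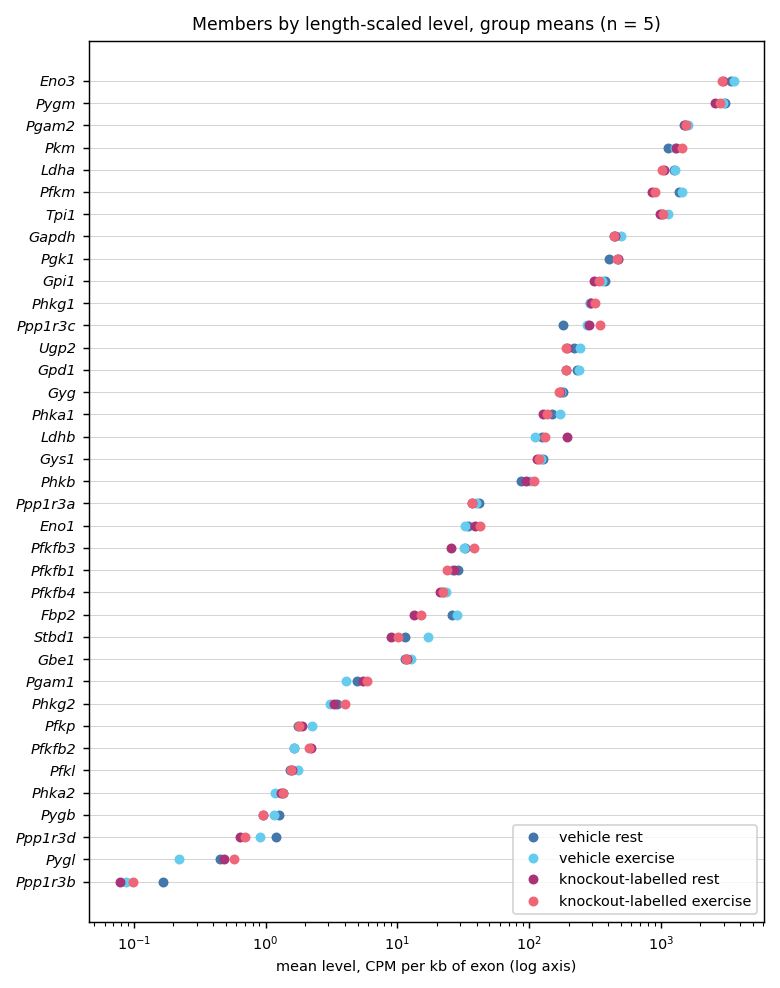
Mean level per kb of exon on a log axis for the 37 symbols with a length, 1 point per group of 5 samples. Eno3 and Pygm lie at the top, and Pygl and Ppp1r3b lie at the bottom.

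Within a library, the muscle form exceeded its partner by a wide margin in most pairs. They are compared here as ratios of levels per length, with 0.5 added to each count. The median ratio of Pygm to Pygb was 1738 in vehicle at rest, and that of Pgam2 to Pgam1 was 245. Phka1 exceeded Phka2, both phosphorylase kinase alpha subunits, 115-fold, and Phkg1 exceeded Phkg2, both gamma subunits, 77.7-fold. On the log2 scale the ratio of Eno3 to Eno1 was 6.63 ± 0.10 in vehicle at rest and 6.79 ± 0.11 after exercise. It was 6.26 ± 0.084 and 6.16 ± 0.26 in the knockout-labelled groups, where each knockout-labelled sample lay below each vehicle sample. How often other gene pairs separate in this way was not computed, and neither gene was called in any contrast. The phosphofructokinase pair Pfkm to Pfkl had median ratios of 927 and 790 in vehicle and of 524 and 538 in knockout-labelled muscle. Its ranges overlapped, at 541 to 1261 in vehicle and 475 to 626 in knockout-labelled muscle at rest. After exercise they were 666 to 1063 and 441 to 778. Pfkl held only 37 to 80 counts per library. The ratio of Ldha to Ldhb had no narrow level in any group and ran from 2.31 to 367 over the libraries. The glycogen targeting pair went the other way. For Ppp1r3a, the muscle subunit, to Ppp1r3c the median ratios were 0.237 at rest and 0.165 after exercise in vehicle. In knockout-labelled muscle they were 0.112 and 0.107. The vehicle and knockout-labelled ranges of this pair overlapped at rest and after exercise. Ratios are given as descriptions with no test.

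The treatment comparison asks how the transcriptome of knockout-labelled muscle differs from that of vehicle muscle. At rest 2 of 40 members were called by edgeR at an adjusted p under 0.05, both lower in knockout-labelled muscle, beside 3.86% of all genes (2.06% lower). After exercise 3 of 40 were called, 2 lower and 1 higher, beside 6.42% of all genes (3.75% lower and 2.67% higher). Averaged over both states 3 of 40 were called, all lower, beside 11% of all genes (5.78% lower). These shares, 5%, 7.5% and 7.5%, lie near the background. The median log2 fold change of the members was -0.06 at rest, -0.08 after exercise and -0.08 averaged, against 0.01 over all genes in each case. In the same contrasts no slow-fibre or fast-fibre marker was called, of 7 and 8. The slow-fibre markers nevertheless had a median log2 fold change of 0.66 at rest, with a range of 0.41 to 1.02. Their median was -0.37 after exercise and 0.16 averaged. For the fast-fibre markers the medians were 0.12, 0.07 and 0.04. Of 5 blood markers 1 was called lower after exercise, where their sum ran from 57.7 to 366 CPM in vehicle and from 48.1 to 139 in knockout-labelled muscle, and of the 3 to 5 markers tested for fat cells, nerve, endothelium, fibroblasts or leukocytes, and of the 2 for satellite cells, none was called. The part of these cell types in the differences was not tested.

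**Figure D2:**
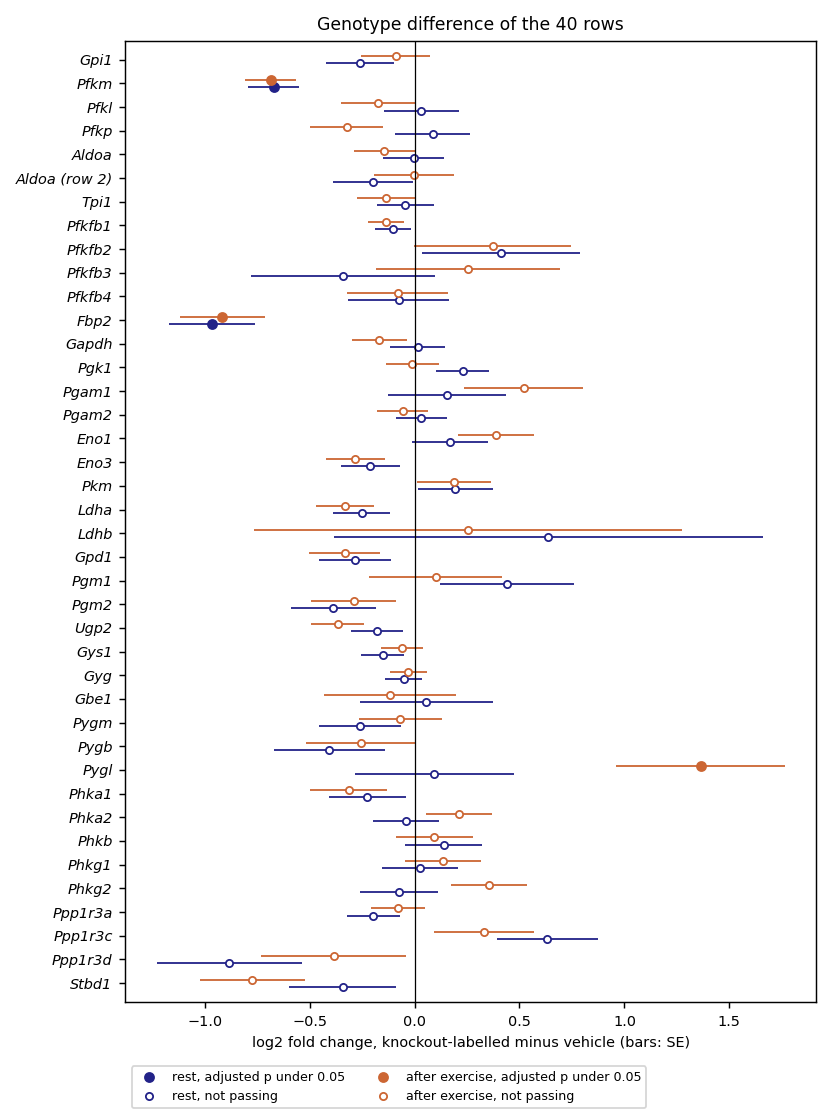
Log2 fold change of knockout-labelled against vehicle for the 40 rows, at rest and after exercise, with bars of 1 SE. Pfkm and Fbp2 lie to the left in both states, and Pygl lies farthest to the right after exercise.

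Pfkm, the muscle phosphofructokinase, had the smallest p of the members in all 3 treatment contrasts. In vehicle at rest its 5 samples stood at 3404, 3211, 4251, 5090 and 4559 CPM, and after exercise at 4425, 5226, 3841, 4336 and 4123. In knockout-labelled muscle it stood at 2399, 2445, 2787, 2576 and 2687 at rest, and at 2714, 2426, 2658, 3088 and 2761 after exercise. All 10 knockout-labelled libraries lay below all 10 vehicle libraries, which held for 1.77% of all genes in either direction. Its log2 difference at rest was -0.67 (SE 0.12, adjusted p = 0.00135). It was -0.69 (SE 0.12, adjusted p = 8.28e-04) after exercise, and averaged over both states -0.68 (SE 0.086, adjusted p = 5.71e-06). It was called in each of the 33, 33 and 32 alternative analyses of these contrasts, including the one without the 5 libraries of lowest Myh7. Exons of Pfkm overlap those of Senp1 on the opposite strand. Senp1 stood at a mean of 9.20 CPM, with a log2 fold change of 0.28 (adjusted p = 0.105, averaged).

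The other upper glycolysis rows gave no call. Gpi1, which converts glucose 6-phosphate to fructose 6-phosphate, averaged 1002 CPM, and its largest log2 fold change was -0.26, at rest. Here and below, the largest value of a member is taken over the treatment and exercise contrasts, and the interaction is given apart. For Pfkl (6.003 CPM) the largest was 0.18 and for Pfkp (8.30 CPM) it was 0.35, both for exercise in vehicle. For Aldoa it was 0.21 in its main row and -0.24 in the second row, which held 78.4 CPM, and for Tpi1 (1843 CPM) it was 0.17. Averaged over exercise, all 7 rows of the group, 2 of them Aldoa, had treatment differences below 0, with a median of -0.10. So did 27 of all 40 members (67.5%) and 48% of all genes. At rest 5 of the 7 rows did. In the averaged contrast the counts below 0 were 3 of 8 for glycogen breakdown, 3 of 7 for lower glycolysis and 5 of 6 for glycogen synthesis. They were 4 of 5 for fructose bisphosphate control, 2 of 3 for the lactate and glycerol phosphate dehydrogenases and 3 of 4 for glycogen targeting.

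Fbp2, the muscle fructose bisphosphatase, works against phosphofructokinase by removing a phosphate from its product. Its samples stood at 28.5, 35.8, 33.4, 42.1 and 36.5 CPM in vehicle at rest and at 33.3, 44.7, 22.8, 50.8 and 41.2 after exercise. In knockout-labelled muscle they stood at 19.3, 11.6, 21.1, 22.4 and 15.9 at rest and at 22.3, 27.2, 14.1, 20.2 and 18.4 after exercise. The groups did not overlap at rest, as for 5.8% of all genes, and after exercise 1 vehicle library, replicate 3, lay within the knockout-labelled range. Fbp2 fell by 0.96 on the log2 scale (SE 0.21, adjusted p = 0.00769) at rest, by 0.92 (SE 0.20, adjusted p = 0.00818) after exercise and by 0.94 (SE 0.14, adjusted p = 1.36e-04) averaged. After exercise without the 5 libraries of lowest Myh7 the value was -0.83 and was not called (adjusted p = 0.117). It rested on 101 to 471 counts per library.

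The Pfkfb genes encode the enzymes that make and break fructose 2,6-bisphosphate, an activator of phosphofructokinase, and none was called by treatment. Pfkfb1 averaged 53.8 CPM and its largest log2 fold change was -0.19, for exercise in knockout-labelled muscle. Pfkfb2 (9.60 CPM) reached 0.41 at rest by treatment, and Pfkfb3 (178 CPM) 0.58 for exercise in knockout-labelled muscle. Pfkfb4 (77.4 CPM) reached 0.09 for exercise in vehicle. Pfkfb1 had the smallest spread of all members, with a median coefficient of variation of 7.3% within groups, against 20.3% over the members.

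**Figure D3:**
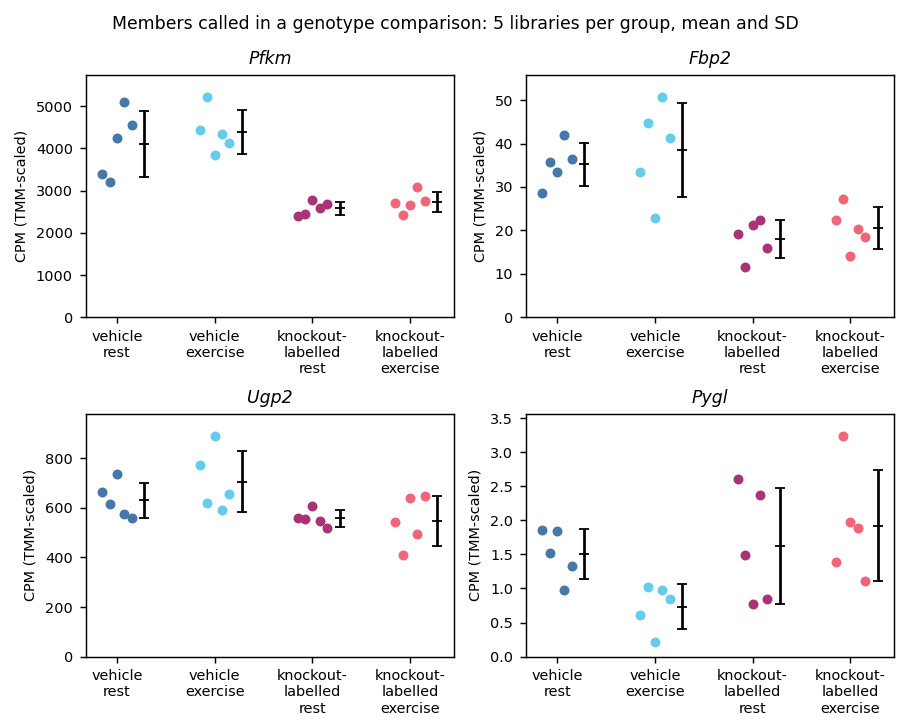
CPM in every sample for the 4 members called in at least 1 contrast, by group of 5, with bars for the mean and SD and the axis starting at 0. For Pfkm the 2 vehicle groups and the 2 knockout-labelled groups do not overlap.

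Lower glycolysis gave no call in any treatment contrast. Gapdh, the enzyme that reduces NAD, averaged 684 CPM and its largest log2 fold change was -0.17. Pgk1, phosphoglycerate kinase, averaged 827 CPM with a largest value of 0.23, Pgam2 averaged 1304 CPM with 0.12, and Pgam1 averaged 9.04 CPM with 0.52. The enolases went opposite ways without passing: after exercise Eno1 (94.8 CPM) stood at 0.39 (SE 0.18, adjusted p = 0.243) and Eno3 (5072 CPM) at -0.28 (SE 0.14, adjusted p = 0.273). Pkm, at 3360 CPM, reached 0.19 at rest.

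Of the dehydrogenases that reoxidize NADH, none was called. Ldha, the muscle lactate dehydrogenase subunit, averaged 2195 CPM, and its largest log2 fold change was -0.33 after exercise (SE 0.14, adjusted p = 0.169). Gpd1, glycerol phosphate dehydrogenase, averaged 609 CPM and also stood at -0.33 (SE 0.17, adjusted p = 0.294). Ldhb, the heart-type subunit, averaged 184 CPM and ranged from 5.23 to 489 CPM over the libraries, the widest relative spread of the members (median coefficient of variation 85.1%). Its value of 0.64 at rest had an SE of 1.02 and an adjusted p of 0.849.

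Ugp2, which makes the UDP-glucose that glycogen synthase uses, was called averaged over exercise. The vehicle samples were at 666, 617, 736, 577 and 558 CPM before exercise and at 772, 621, 891, 591 and 657 after exercise. In knockout-labelled muscle it stood at 558, 553, 609, 549 and 518 at rest and at 544, 410, 641, 495 and 648 after exercise. The groups overlapped. The averaged log2 fold change was -0.27 (SE 0.089, adjusted p = 0.0497), close to the threshold. The call was lost without any 1 of 14 of the 20 libraries: vehicle at rest replicates 1, 3 and 4, vehicle after exercise replicates 1, 3 and 5, knockout-labelled at rest replicates 1 to 5, and knockout-labelled after exercise replicates 1, 2 and 4 (adjusted p from 0.0519 to 0.0997, with values of -0.31 to -0.23 over all 20 omissions). Exons of Ugp2 overlap Gm12043 on the opposite strand, which stood at 57.4 CPM with a log2 fold change of -0.32 (adjusted p = 0.107).

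Just outside the threshold in the same contrast lay Stbd1, which tethers glycogen to membranes, at -0.56 (SE 0.18, adjusted p = 0.0501), and Ldha at -0.29 (adjusted p = 0.0535). The averaged count of 3 members became 5 without vehicle at rest replicate 2 or knockout-labelled after exercise replicate 4, and 6 without vehicle after exercise replicate 3. Among all genes the averaged calls ran from 1282 to 1538 over the 20 omissions, with 1486 in the main fit.

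The other glycogen synthesis rows gave no call. Gys1, the muscle glycogen synthase, averaged 448 CPM with a largest log2 fold change of -0.15, and Gyg, the glycogenin primer protein, averaged 335 CPM with -0.05. Gbe1, the branching enzyme, averaged 51.0 CPM with 0.15. The rows called Pgm2 and Pgm1 reached -0.39 and 0.44, both at rest.

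Pygl, the liver phosphorylase, was the member called higher after exercise, on very few reads. Its counts were 6, 9, 2, 9 and 9 in exercised vehicle and 12, 30, 18, 14 and 13 in exercised knockout-labelled muscle, where the ranges did not overlap, as for 6.29% of all genes. At rest the counts were 16, 17, 15, 8 and 12 in vehicle and 21, 13, 7, 22 and 8 in knockout-labelled muscle, which overlapped. The log2 fold change after exercise was 1.36 (SE 0.40, adjusted p = 0.043). It lost the call without any 1 of 12 libraries: vehicle at rest replicates 1 to 3, each of the 5 exercised vehicle libraries, knockout-labelled at rest replicate 2, and knockout-labelled after exercise replicates 2, 3 and 4 (adjusted p from 0.0501 to 0.146). The highest of these values came without knockout-labelled after exercise replicate 2, where the fold change was 1.08.

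The abundant phosphorylase Pygm, at 8211 CPM, had a largest log2 fold change of -0.26, and Pygb, at 4.22 CPM, of -0.41. Phosphorylase kinase switches phosphorylase on. Its muscle alpha subunit Phka1 averaged 906 CPM with -0.31, its beta subunit Phkb 527 CPM with 0.24, and its muscle gamma subunit Phkg1 712 CPM with 0.13. The liver forms Phka2 and Phkg2 averaged 6.57 and 6.57 CPM with 0.21 and 0.35. None of these values passed the test.

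The targeting subunits bring protein phosphatase 1 to glycogen. Ppp1r3c averaged 742 CPM with resting vehicle samples at 420, 515, 506, 501 and 549 CPM, and resting knockout-labelled samples at 798, 429, 671, 1194 and 772. One knockout-labelled library, replicate 2, lay within the vehicle range. The log2 fold change of 0.63 (SE 0.24) had an adjusted p of 0.189. Ppp1r3a, the muscle subunit, averaged 270 CPM with a largest value of -0.20, Ppp1r3d 2.82 CPM with -0.88 (adjusted p = 0.198), and Stbd1 26.6 CPM with -0.77 after exercise (SE 0.25, adjusted p = 0.0738). Exercised samples of Stbd1 were at 40.8, 48.5, 30.4, 45.3 and 26.2 CPM in vehicle and at 15.8, 25.3, 19.0, 37.2 and 15.2 in knockout-labelled muscle. Only replicate 4 of the knockout-labelled libraries lay within the vehicle range.

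Many members varied with the slow-fibre score, the mean log2 CPM of the 7 slow markers, which ran from -0.38 to 8.65 over the libraries. With the 4 group means in the model, 29 of 40 members were called along the score (72.5%), beside 23.1% of all genes. Of these 23 were lower with more slow-fibre RNA, beside 10.6% of all genes, and 6 higher, beside 12.5%. Without the 5 libraries of lowest Myh7 the count was 4. The share of all genes in that fit was not computed, so this fall cannot be set against the background. Ldhb rose by 0.66 log2 units per unit of score (SE 0.048, adjusted p = 3.02e-07), and Gbe1, Pgam1, Pfkfb2, Ugp2 and Gys1 were the others that were higher, at 0.15, 0.13, 0.17, 0.055 and 0.038. Ldhb was lowest, at 5.23 CPM, in the library with the lowest score and highest, at 489 CPM, in the library with the highest. In exercised knockout-labelled muscle its samples were at 228, 16.3, 277, 15.9 and 323 CPM, and the 2 low ones are those under 10 CPM for Myh7. In exercised vehicle they were at 251, 5.23, 332, 32.5 and 100.2 CPM, where replicates 2 and 4 were again the lowest.

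Among those lower with the score, the phosphorylase kinase subunits Phkg1, Phkb and Phka1 led by p, at -0.099, -0.098 and -0.096 log2 units per unit (adjusted p = 2.46e-06, 4.58e-06 and 8.01e-06). Tpi1 stood at -0.069, Gpd1 at -0.086, Pygm at -0.098 and Pkm at -0.085. Pfkm did not pass, at -0.030 (SE 0.014, adjusted p = 0.120), and Fbp2 did, at -0.079 (adjusted p = 0.00957). The score was made from markers that are no members, but both are relative to the same library totals.

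**Figure D4:**
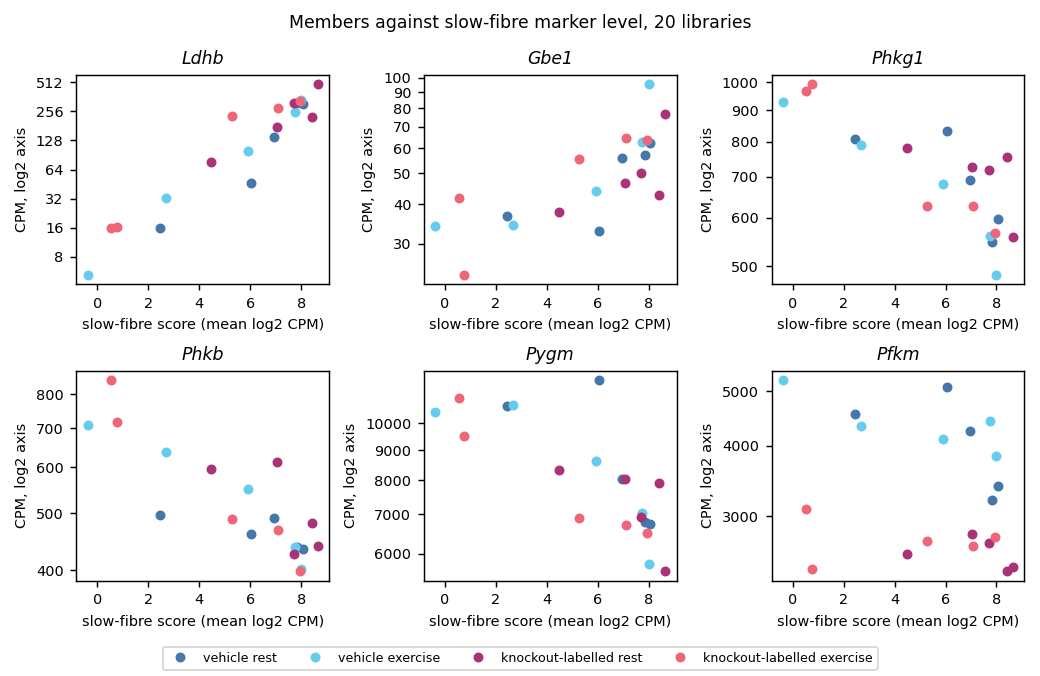
CPM of 6 members on log axes against the slow-fibre score, 1 point per library and colour by group. Ldhb and Gbe1 are higher in libraries with a high score, Phkg1, Phkb and Pygm are lower, and Pfkm separates by treatment.

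With the score in the model as a covariate, the treatment contrasts called more members. At rest they were 4 of 40 (10%), against 6.23% of all genes. Pfkm and Fbp2 were lower, and Pgk1 at 0.29 (adjusted p = 0.0274) and Ppp1r3c at 0.70 (adjusted p = 0.00706) were higher. After exercise they were 10 of 40 (25%), against 10.4% of all genes. Ugp2, Fbp2, Gpd1, Pfkm, Phka1, Stbd1, Eno3 and Ldha were lower, and Pgam1 and Pygl were higher. Averaged they were 11 of 40 (27.5%), against 16.1% of all genes. Ldha stood at -0.27, Gpd1 at -0.28, Eno3 at -0.23, Phka1 at -0.24, Stbd1 at -0.54 and the row called Pgm2 at -0.32. Ugp2 stood at -0.29 (adjusted p = 0.00141). Eno1 at 0.28 and Ppp1r3c at 0.52 were higher in that fit. Pfkm stood at -0.66 and Fbp2 at -0.92, near their values without the score.

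The exercise comparison asks what 1 bout changes an hour later. No member was called, in vehicle (beside 0.804% of all genes), in knockout-labelled muscle (beside 0%), or averaged (beside 0.634%). At an unadjusted p under 0.05 the members numbered 3, 1 and 3, beside 8.92%, 4.71% and 8.28% of all genes, and every alternative, DESeq2 included, also gave 0 members at the adjusted threshold. In vehicle the smallest p-values were those of Pygl, at -1.02 (SE 0.41, adjusted p = 0.400), and Ppp1r3c, at 0.59 (SE 0.24, adjusted p = 0.419). Exercised vehicle samples of Ppp1r3c stood at 546, 1123, 467, 965 and 656 CPM, of which replicates 2 and 4, the 2 highest, were also low in Myh7. In knockout-labelled muscle Pfkfb1 stood at -0.19 (SE 0.086, adjusted p = 0.9995) and Phkg2 at 0.26 (SE 0.18, adjusted p = 0.9995). Averaged, Pfkfb1 stood at -0.17 (adjusted p = 0.320) and Ppp1r3c at 0.44 (adjusted p = 0.402). No marker of the slow-fibre, fast-fibre, blood, fat, nerve, endothelial, fibroblast, leukocyte or satellite cell lists was called by exercise, and the slow-fibre markers had medians of -0.40 in vehicle and -1.49 in knockout-labelled muscle. The members' medians were 0.04 in vehicle and 0.06 in knockout-labelled muscle, against 0.00 over all genes in both.

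**Figure D5:**
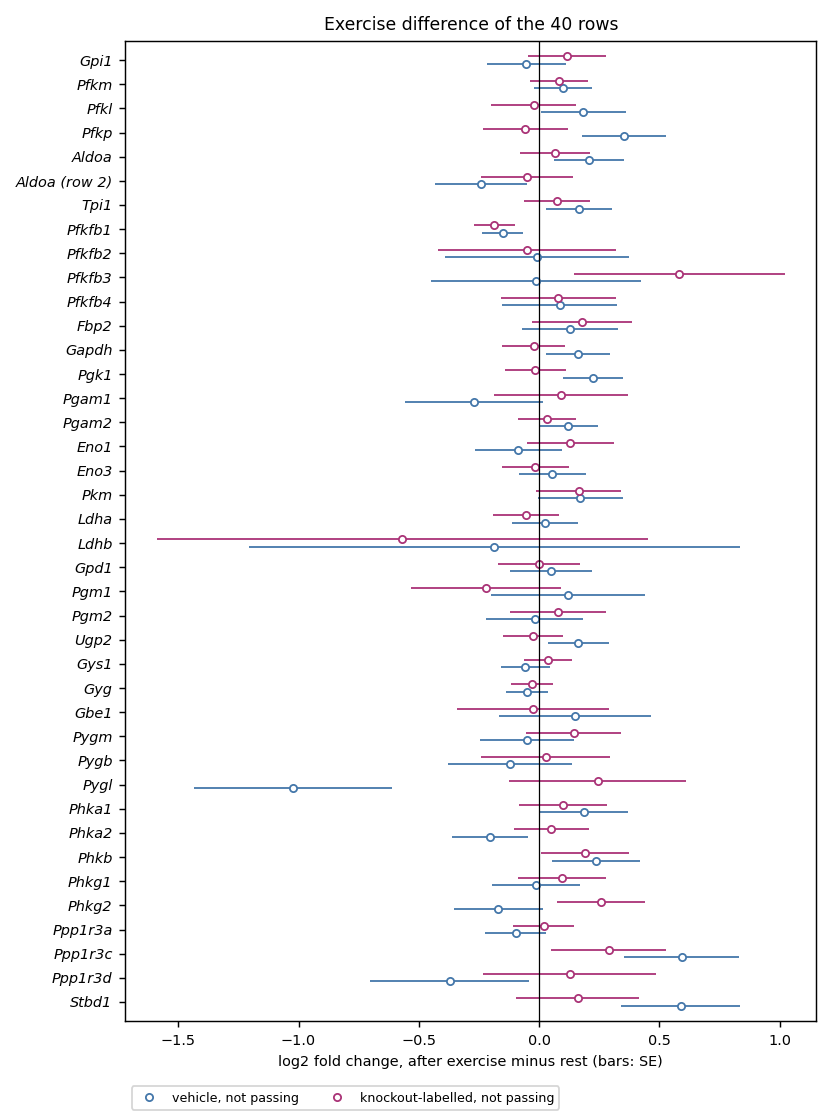
Log2 fold change after exercise for the 40 rows in vehicle and in knockout-labelled muscle, with bars of 1 SE. All symbols are open because none passed the test, and Ldhb carries the widest bars.

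The difference between both exercise responses was tested as an interaction. It called 0 members and 0% of all genes by edgeR, with 1 member at an unadjusted p under 0.05, beside 5.83% of all genes. The smallest p-values were those of Pygl, at 1.27 (SE 0.55, adjusted p = 0.813), and Pfkp, at -0.41 (SE 0.25, adjusted p = 0.892). The interaction was larger in size than every other contrast for 8 members: Pfkp, Pfkl at -0.21, Pfkfb3 at 0.60, Gapdh at -0.18, Pgk1 at -0.24, Gbe1 at -0.17, Phka2 at 0.25 and Phkg2 at 0.43. The treatment difference of Pfkm was nearly the same size in both states, at -0.67 and -0.69.

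Other genes of glucose handling were taken from a list of 53, of which 43 could be tested. The list was chosen with earlier results of these data known, so its counts cannot be tested against the shares of all genes. In knockout-labelled muscle 5 were lower and 0 higher at rest, 5 and 0 after exercise, and 8 and 0 averaged, beside 2.06%, 3.75% and 5.78% of all genes lower, and with medians of -0.06, -0.10 and -0.09. By role, the averaged calls were 3 of 7 for glucose entry (Hk2, Slc2a3 and Slc2a4), 2 of 4 for minor isozymes (Bpgm and Pgm2l1), 2 of 5 for pyruvate and lactate transport (Mpc1 and Slc16a3) and 1 of 8 for the pentose phosphate pathway (Rpia). None of 11 other glycogen genes and none of 8 NADH shuttle genes was called. Resting levels of Slc2a3, a glucose transporter, were 24.0 ± 9.85 CPM in vehicle and 2.26 ± 1.19 in knockout-labelled muscle, a log2 difference of -3.40 (adjusted p = 7.47e-05). Hk2, the muscle hexokinase that traps glucose for the trunk in which Pfkm acts, stood at 657 ± 154 and 366 ± 114 CPM after exercise (-0.84, adjusted p = 0.00527). Mpc1, a subunit of the mitochondrial pyruvate carrier, was lower by treatment averaged over exercise, at -0.50 (adjusted p = 9.53e-05). Exercise and the interaction gave 0 calls in this list.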

How the data were processed

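RNA sequencing of 20 gastrocnemius samples gave 1 table of whole-number counts per gene symbol, used as deposited by the authors. The submitters' processing notes name Partek, STAR 2.7.8a, DESeq2 and the builds mm10 and GRCm39, with no role given. The annotation, the counting step and its strandedness are not given in the sources used here, so reads of overlapping genes on opposite strands cannot be separated. Genes were filtered with filterByExpr (minimum 10 counts), scaled by TMM and fitted with the robust quasi-likelihood model of edgeR 4.0.16 in R 4.3.3, with 4 group means, 7 contrasts and Benjamini-Hochberg adjustment over 13560 genes holding 99.83% of all counts. CPM are counts scaled to 1e6 per TMM-scaled library. The fit was also run on simulated counts, which held no slow-fibre differences between libraries, and the outcome is not given here. Lengths are exon unions of GENCODE M21, and promoters are RefSeq windows on GRCm38.p6, matched by symbol. The members and lists were chosen with earlier results of these data known. Values in every sample are given for members with an adjusted p under 0.05 in any contrast, and for a contrast with no such member its 2 smallest p-values are named. Single samples of Ppp1r3c, Stbd1 and Ldhb, not called in the 7 contrasts, are also given for some groups, outside this rule. Ppp1r3c was added after its values were seen. Alternatives used DESeq2 1.42.0, limma-voom (limma 3.58.1), other scalings and filters, the replicate number, the slow-fibre score, and each library left out. Replicate numbers were not used as pairs. A fit without the 5 libraries with Myh7 under 10 CPM, and the test of the score itself, were added after seeing the data.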

Additional observations from a re-analysis of the deposited data

Results flagged for a closer look

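Each of the 40 members was checked in the 4 groups, 160 sets of 5 libraries in all, for a library that stands apart from the others of its group. Chance flags about 1 in 20 such sets, and 2 were found here. Phkg1, the muscle gamma subunit of phosphorylase kinase, stood at 558 CPM in knockout-labelled muscle at rest replicate 2, while the other 4 libraries of that group lay between 718 and 782. That library also had the highest slow-fibre score, 8.65. Phka2, the liver alpha subunit, stood at 9.58 CPM in knockout-labelled muscle after exercise replicate 4, while the others lay between 5.90 and 6.86. That library had a slow-fibre score of 0.54. The part of the score in either value was not tested.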

How the results depend on the processing

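Pfkm kept its call in each treatment contrast under all alternatives, and Fbp2 under all but 1, given in the report. The count of members called at rest was 2, and 4 with the slow-fibre score as a covariate. After exercise it was 3, with 10 under the score and 1 without the 5 libraries of lowest Myh7. Averaged over exercise it was 3, with 11 under the score, 6 by DESeq2, and 5 each with library size only, the stricter filter, mitochondrial genes left out, the replicate block, and without those 5 libraries. Under the score 6.23%, 10.4% and 16.1% of all genes were called at rest, after exercise and averaged. For the other alternatives the calls over all genes are given only as ranges. Whether those member counts moved with the background is therefore not shown. Along the slow-fibre score the count of members was 29, with 4 without those 5 libraries, where the share of all genes was not computed. Leaving out 1 library gave 2 members at rest, 2 to 4 after exercise, 2 to 6 averaged and 27 to 31 along the score. Over all genes it gave 367 to 601 calls at rest, 642 to 896 after exercise and 1282 to 1538 averaged. Exercise and interaction contrasts gave 0 members under all alternatives. The cause of these moves was not tested. Pygl after exercise also lost its call with the replicate block (adjusted p = 0.05002), with only the groups of the contrast (0.0728), by limma-voom (0.0670) and without the 5 libraries (0.265). Ugp2 lost it with library size only (0.116), non-robust dispersions (0.0554) and limma-voom (0.05001). Of 30 same-numbered pairs 15 had a correlation of deviations over 0.1 (median 0.089, against -0.017 for different numbers), and 7 of 20 samples correlated best with their own number. As not every pair was over 0.1 and no label ties the numbers to animals or batches, the block is an alternative only. Over all genes the calls ran from 367 to 845 at rest, 304 to 1411 after exercise, 1007 to 2187 averaged, 52 to 248 for exercise in vehicle, 0 to 6 in knockout-labelled muscle, 35 to 253 averaged and 0 to 3 for the interaction. Depth limits members such as Pygl, with 2 to 30 counts.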
